A study of Mus musculus with 6 samples.

Results

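BMP signalling, hepcidin and iron handling in the liver were described through 10 genes out of the 54532 Ensembl mouse genes counted in this series. They were the BMP ligands Bmp2, Bmp5 and Bmp6, the SMAD target genes Id1 and Smad7, the hepcidins Hamp and Hamp2, the transferrin receptors Tfrc and Tfr2, and the iron exporter Slc40a1, each found by its GENCODE M21 symbol. The 10 genes were chosen by their measured values in the same contrast that is described here, so their fold changes are a description and were given no test. RNA-seq was performed on whole liver as 3 libraries of the HFD group (replicates 1 to 3) and 3 of the HFD + Allantoin-H group (replicates 4 to 6). Per the labels and the study's methods, all were wild-type male C57BL/6J mice, 8 weeks old at the start, that ate a high-fat diet for 4 weeks and then for another 4 weeks. Allantoin-H mice received allantoin, an oxidation product of uric acid, in the drinking water at 0.3 mg/mL during the last 4 weeks, and the HFD mice received none. The labels name the concentrations 0.06 and 0.3 mg/mL without tying a library to either, so the dose rests on the study's methods. No chow library was analysed here, and every library carries the high-fat diet.

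In the liver, BMP2 and BMP6 are made mainly by sinusoidal endothelial cells and act on receptors of the hepatocyte, where phosphorylated SMAD proteins switch on hepcidin, Id1 and Smad7. Hepcidin is secreted into blood and makes cells degrade ferroportin (Slc40a1), the exporter through which iron leaves macrophages, hepatocytes and gut cells. Transferrin receptor 1 (Tfrc) takes up iron bound to transferrin, and its mRNA is stabilized by iron regulatory proteins when iron in the cell is low, while transferrin receptor 2 (Tfr2) senses iron-loaded transferrin on hepatocytes.

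Depth was similar between groups, at 11326372 to 12643458 counts per HFD library and 11478950 to 14601457 per Allantoin-H library. Values are CPM, each library's counts scaled to its TMM-adjusted total, with factors of 0.756 to 0.951 in HFD and 1.12 to 1.19 in Allantoin-H. All 10 genes passed the low-count filter that kept 12795 genes. Of the tested genes 24.3% were called at an adjusted p under 0.05 in edgeR's quasi-likelihood test, 11.3% higher and 13% lower in Allantoin-H, and in 44.3% the values of the 2 groups did not overlap. By the same rules 3 of the 10 genes were called, Bmp5 and Tfrc higher and Hamp lower, and the same 3 did not overlap. Nothing is read from these counts, since the genes were selected on this contrast. The labels do not say whether the libraries came from separate animals, so p-values given for other genes measure only the spread between libraries. An exact permutation test of 3 against 3 cannot go below 0.1.

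The hepcidin genes lie side by side on chromosome 7. Their start regions are shown because the pair is nearly identical in sequence, while the values of Hamp2 overlapped between groups and those of Hamp did not. Hamp (ENSMUSG00000050440, chr7:30942368-30944032, minus strand, GRCm38) has 3 exons, and Hamp2 (ENSMUSG00000056978, chr7:30922372-30924681, minus strand) has 4 in the merged annotation. RefSeq start regions were found for 6 of the 10 genes. Bmp5, which had the largest fold change of the 10, and Tfrc are shown beside the hepcidins. Each sequence is the 250 bases before the RefSeq start (GRCm38.p6), 5′ to 3′ on the gene's strand: Hamp is chr7:30944030-30944279 (minus), Hamp2 chr7:30924182-30924431 (minus), Bmp5 chr9:75775115-75775364 (plus) and Tfrc, first of its 2 starts, chr16:32608646-32608895 (plus). Capitals mark GGCGCC, the core of BMP-responsive elements, with the 6 bases aligned to it in Hamp2, and TTCNNNGAA, the consensus bound by STAT proteins.
Hamp: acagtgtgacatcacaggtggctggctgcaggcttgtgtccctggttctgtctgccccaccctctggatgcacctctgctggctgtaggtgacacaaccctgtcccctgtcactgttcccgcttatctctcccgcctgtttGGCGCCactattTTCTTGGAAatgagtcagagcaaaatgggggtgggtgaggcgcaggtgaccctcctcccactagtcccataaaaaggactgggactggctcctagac
Hamp2: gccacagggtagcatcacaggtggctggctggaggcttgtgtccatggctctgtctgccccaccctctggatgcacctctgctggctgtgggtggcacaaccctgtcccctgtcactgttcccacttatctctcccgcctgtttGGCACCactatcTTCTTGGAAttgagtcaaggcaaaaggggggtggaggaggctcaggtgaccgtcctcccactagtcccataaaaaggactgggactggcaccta
Bmp5: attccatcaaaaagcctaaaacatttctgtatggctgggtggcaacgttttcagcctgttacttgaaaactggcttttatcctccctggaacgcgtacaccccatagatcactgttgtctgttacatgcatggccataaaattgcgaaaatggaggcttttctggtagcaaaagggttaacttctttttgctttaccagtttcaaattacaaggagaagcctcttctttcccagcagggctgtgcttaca
Tfrc: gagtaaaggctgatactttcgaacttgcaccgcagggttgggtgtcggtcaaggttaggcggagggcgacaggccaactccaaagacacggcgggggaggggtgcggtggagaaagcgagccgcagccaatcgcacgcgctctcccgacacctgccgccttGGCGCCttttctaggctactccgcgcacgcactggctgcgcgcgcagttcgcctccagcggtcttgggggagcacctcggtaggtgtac
Hamp held GGCGCC beginning 109 bases and TTCNNNGAA beginning 97 bases before the start. Hamp2 held TTCNNNGAA beginning 94 bases before its start, and its bases aligned to the GGCGCC of Hamp differed by the substitution G145A, counted from 1 at the 5′ end of the Hamp sequence, with the base of Hamp first. Tfrc held GGCGCC beginning 89 bases before its start, and Bmp6 held CACGTG, the E-box core, beginning 127 bases before its own. GTCTAGAC, a palindromic SMAD-binding sequence, was in none of the regions searched, nor was any of the 4 motifs in Bmp5, Tfr2 or the second start of Tfrc. All 4 motifs read the same on both strands and none overlapped another in these regions. Over 32851 RefSeq windows of 300 bases, reaching 50 bases past the start, GGCGCC was in 11.9%, TTCNNNGAA in 8.3%, CACGTG in 7.15% and GTCTAGAC in 0.213%. A match is a match of letters only. Within the 300-base windows 276 of 297 aligned bases were identical between Hamp and Hamp2 (92.93%), and 388 of 410 between their longest transcripts (94.63%), whose longest shared run was 87 bases. Reads shorter than such a run can belong to either gene, so the split of counts between the hepcidins is uncertain.

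The ligands went separate ways, with a large rise of Bmp5 from near zero beside Bmp2 and Bmp6 values that overlapped between groups. Bmp5 (ENSMUSG00000032179, chr9:75775364-75900310, plus strand, 8 exons), a member of the same BMP subgroup as BMP6, had 1, 2 and 2 counts in the HFD libraries and 77, 85 and 57 in the Allantoin-H libraries. This was 0.158 ± 0.0449 CPM (SD, n = 3) against 4.84 ± 0.913 CPM, with no overlap. The summed counts of 5 and 219, divided by the TMM-adjusted totals, gave a ratio of 30.2, with a counting interval of 12.7 to 93.8 (95%, exact, counting error only), and the fitted log2 fold change was 4.84 (SE 0.48). An antisense gene on the opposite strand, Gm26903, shares 1878 exon bases with Bmp5 and had at most 1 count in any library.

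Bmp6 (ENSMUSG00000039004, chr13:38345107-38500302, plus strand, 9 exons), the ligand that reports liver iron to the hepatocyte, was measured at 0.328, 2.27 and 1.34 CPM in HFD and at 4.33, 3.90 and 0.945 CPM in Allantoin-H. Allantoin-H replicate 6 lay below 2 of the HFD libraries, so the groups overlapped. The log2 fold change was 1.2 (SE 0.70), and it ran from 0.76 without HFD replicate 1 to 1.81 without HFD replicate 2. On the opposite strand Txndc5, a protein disulfide isomerase gene at 135 to 169 CPM, shares 224 exon bases with Bmp6 and had a log2 fold change of 0.03. The counting's use of strand is not given in the sources used here, so reads in these bases cannot be told apart.

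Bmp2 (ENSMUSG00000027358, chr2:133552159-133562885, plus strand, 3 exons), the other endothelial ligand that hepcidin depends on, was at 9.50, 13.3 and 5.68 CPM in HFD and at 13.3, 12.4 and 8.10 CPM in Allantoin-H. The highest library of each group stood at nearly the same level, and the log2 fold change was 0.25 (SE 0.33). Per 100 counts of Bmp2 in the same library, which needs no scaling between libraries, Bmp5 had 1.15, 1.48 and 2.94 counts in HFD and 42.3, 40.5 and 47.5 in Allantoin-H. Bmp6 per 100 counts of Bmp2 ran from 3.45 to 23.5 in HFD and from 11.7 to 32.4 in Allantoin-H. Bmp5 per Bmp2 therefore kept the groups apart, while Bmp6 per Bmp2 overlapped between them. Compared per kilobase of exon, Bmp2 was the most abundant ligand in both groups, at 2.67 ± 1.08 CPM per kb in HFD and 3.18 ± 0.788 in Allantoin-H (SD, n = 3). Bmp5 went from the lowest of the 3 ligands (0.0392 ± 0.0112 CPM per kb) to 1.2 ± 0.227, next to Bmp6 at 0.784 ± 0.472. These Allantoin-H means differed by less than the SD of Bmp6. Within every library the order of Bmp5 and Bmp6 was that of the group means, with Bmp5 below Bmp6 in HFD and above it in Allantoin-H. Per 100 counts of Bmp6, Bmp5 had 33.3, 8.70 and 12.5 counts in HFD and 131, 129 and 407 in Allantoin-H.

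**Figure D1:**
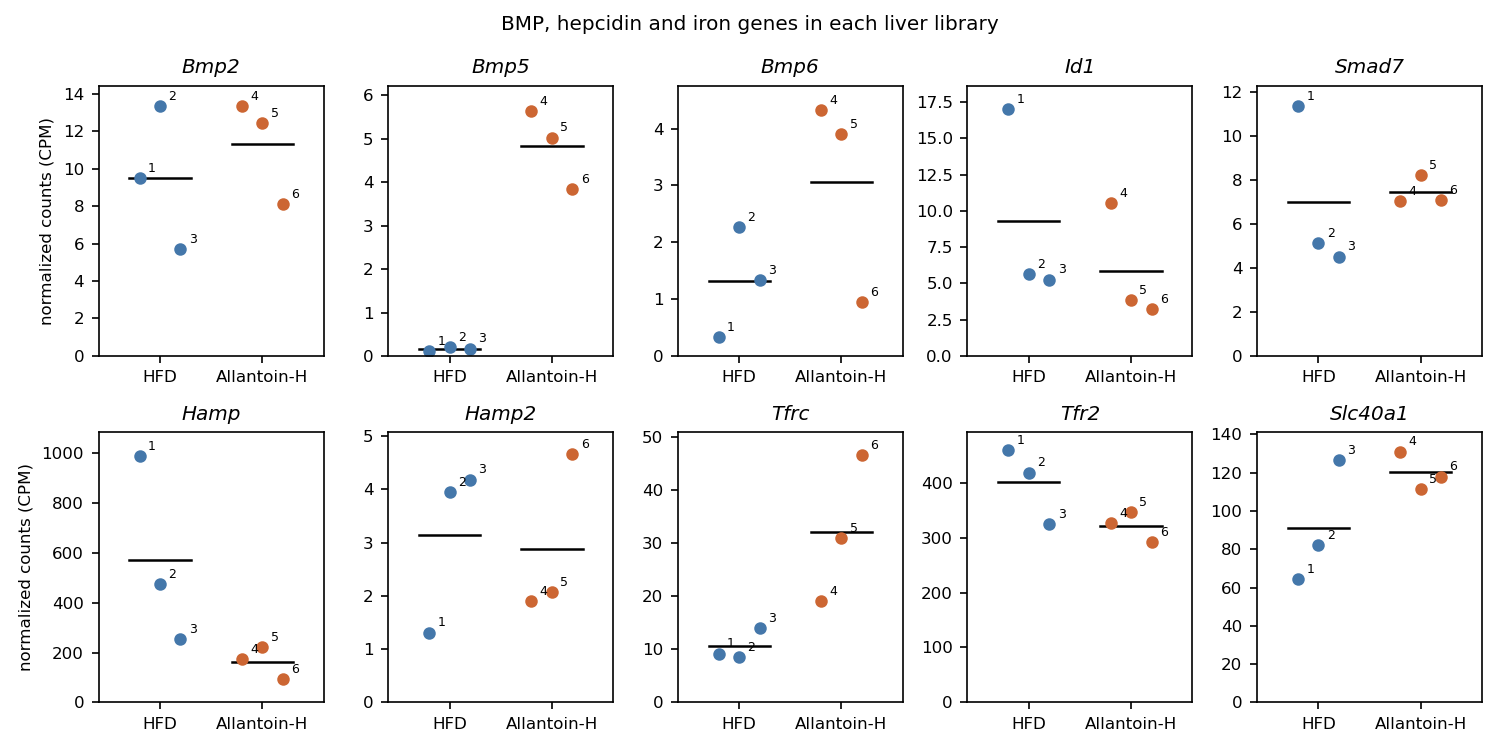
Normalized counts (CPM, linear axes from 0) of the 10 genes in each library, with points numbered by replicate, blue for HFD and orange for Allantoin-H, and bars at group means. Bmp5 and Tfrc lie higher and Hamp lower in Allantoin-H with no overlap, while the other 7 genes overlap. HFD replicate 1 is the highest library for Hamp, Id1, Smad7 and Tfr2.

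The values of Id1 and Smad7, both targets of the BMP-activated SMADs, overlapped between groups. Id1 (ENSMUSG00000042745, chr2:152736251-152737410, plus strand, 1 exon), an inhibitor of helix-loop-helix factors and the usual readout of BMP signalling in liver, was at 17.0, 5.63 and 5.27 CPM in HFD and at 10.6, 3.85 and 3.24 CPM in Allantoin-H. A single library in each group, replicate 1 and replicate 4, was far above the others of its group. The log2 fold change was -0.66 (SE 0.57), and it was 0.10 without HFD replicate 1 and -1.37 without Allantoin-H replicate 4. Its size thus depended on single libraries, and its sign turned only without HFD replicate 1, in 1 of 14 alternative settings. Smad7 (ENSMUSG00000025880, chr18:75367529-75395935, plus strand, 6 exons), the inhibitory SMAD that closes the feedback loop on the receptors, was at 11.4, 5.14 and 4.51 CPM in HFD and at 7.04, 8.22 and 7.09 CPM in Allantoin-H. Its Allantoin-H values lay between the highest and the middle HFD library, and the log2 fold change was 0.10 (SE 0.36), or 0.63 without HFD replicate 1. The spread of Smad7 was 2.51-fold within HFD (highest over lowest library) and 1.17-fold within Allantoin-H.

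Hamp, which encodes hepcidin, had the highest level per kilobase of exon of the 10 genes in both groups and was lower in all Allantoin-H libraries than in each of the HFD libraries. It had 9044, 4794 and 3057 counts in HFD (987, 473 and 256 CPM) and 2375, 3737 and 1371 counts in Allantoin-H (174, 221 and 92.5 CPM). The HFD libraries differed 3.86-fold among themselves, and the gap between the lowest of them and the highest Allantoin-H library was narrow. Means were 572 ± 376 and 163 ± 65.0 CPM (SD, n = 3), the log2 fold change was -1.81 (SE 0.48), and the fitted level was 3.52-fold higher in HFD. The size depended on HFD replicate 1, without which the log2 fold change was -1.17. It was -1.21 with a trend on transcript length and GC content removed, and -1.32 with library size as the only scaling.

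Hamp2, whose peptide is thought not to regulate iron as hepcidin does, did not follow Hamp. Counts were 12, 40 and 50 in HFD (1.31, 3.95 and 4.18 CPM) and 26, 35 and 69 in Allantoin-H (1.91, 2.07 and 4.66 CPM), which overlapped throughout. Its log2 fold change was -0.14 (SE 0.52) and was 0.22 with library size as the only scaling. Per 100 counts of Hamp there were 0.133, 0.834 and 1.64 counts of Hamp2 in HFD and 1.09, 0.937 and 5.03 in Allantoin-H. HFD replicate 1 had the most Hamp and the least Hamp2, and Allantoin-H replicate 6 the reverse, so the ratio was lowest in the former and highest in the latter. Per kilobase of exon, Hamp was at 1395 ± 916 CPM in HFD and 397 ± 159 in Allantoin-H, against 5.40 ± 2.74 and 4.94 ± 2.65 for Hamp2 (SD, n = 3). The antisense gene Gm44662, which shares 89 exon bases with Hamp2, had 0 counts in every library.

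The transferrin receptors moved apart. Tfrc (ENSMUSG00000022797, chr16:32608920-32632794, plus strand, 19 exons), the receptor for cellular iron uptake, was at 9.17, 8.59 and 14 CPM in HFD and at 19.1, 30.9 and 46.5 CPM in Allantoin-H. Every Allantoin-H library was above every HFD library, and the Allantoin-H libraries spread over 2.43-fold. The log2 fold change was 1.6 (SE 0.33), a fitted 3.02-fold, and it was 1.24 without Allantoin-H replicate 6, the highest library. Tfr2 (ENSMUSG00000029716, chr5:137569840-137587481, plus strand, 16 exons), the hepatocyte's iron sensor, was at 460, 418 and 324 CPM in HFD and at 327, 346 and 292 CPM in Allantoin-H. The groups overlapped, with a log2 fold change of -0.32 (SE 0.18) that was 0.12 with library size as the only scaling.

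Within each library Tfrc was counted 2.0, 2.05 and 4.34 times per 100 counts of Tfr2 in HFD and 5.85, 8.91 and 15.9 times in Allantoin-H. Hamp per 100 counts of Tfr2 was 215, 113 and 78.9 in HFD and 53.3, 63.8 and 31.7 in Allantoin-H. Both ratios kept the groups apart without any scaling between libraries. Allantoin-H replicate 6 stood at the end of each, with the most Tfrc and the least Hamp per Tfr2. Per 100 counts of Alb (albumin), a hepatocyte transcript, Hamp had 1.77, 0.783 and 0.412 counts in HFD and 0.320, 0.373 and 0.113 in Allantoin-H.

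**Figure D2:**
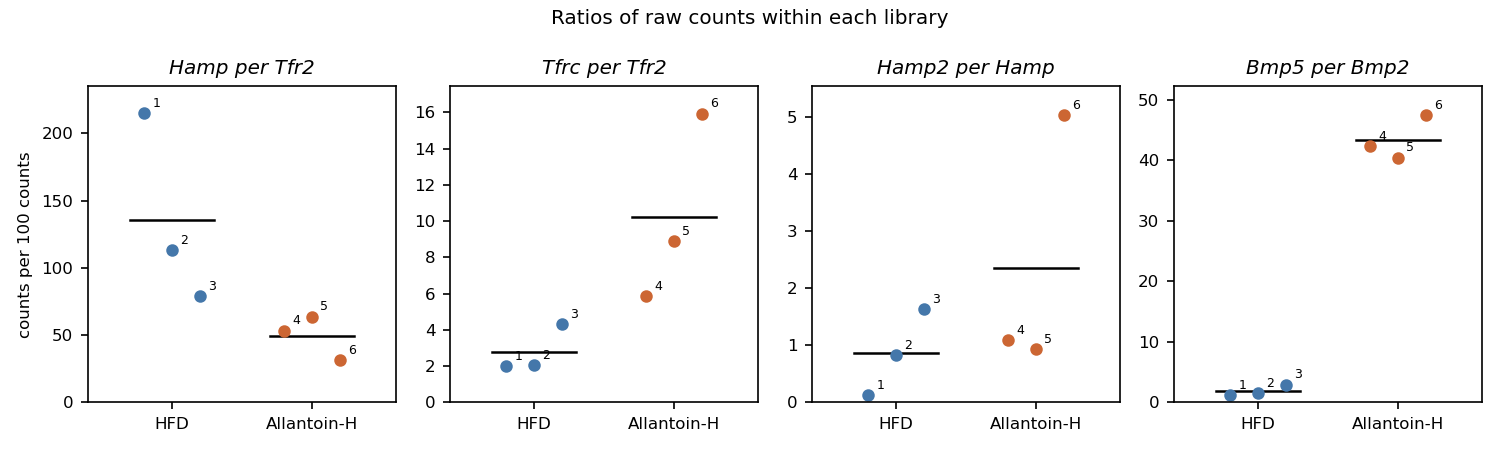
Counts of the first gene per 100 raw counts of the second in the same library (linear axes from 0, points numbered by replicate, bars at group means). Hamp per Tfr2, Tfrc per Tfr2 and Bmp5 per Bmp2 do not overlap between groups, while Hamp2 per Hamp does, with its highest value of 5.03 in Allantoin-H replicate 6.

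Slc40a1 (ENSMUSG00000025993, chr1:45908068-45926523, minus strand, 8 exons), which encodes ferroportin, was at 64.4, 82.1 and 127 CPM in HFD and at 131, 112 and 118 CPM in Allantoin-H. HFD replicate 3 fell among the Allantoin-H libraries and the other HFD libraries lay below them. On the log2 scale the difference was 0.40 (SE 0.24), or 0.20 without HFD replicate 1. Hepcidin acts on ferroportin as a protein, which was not measured here. Per kilobase of exon the order of levels in HFD was Hamp, Tfr2 (92.4 ± 16.0), Slc40a1 (10.1 ± 3.56), Id1 (8.03 ± 5.77), Hamp2, Bmp2, Tfrc (1.71 ± 0.484), Smad7 (1.55 ± 0.837), Bmp6 and Bmp5, in CPM per kb (SD, n = 3). From Slc40a1 down to Smad7 each pair of neighbours differed by less than the larger of their SDs. In Allantoin-H, Tfrc (5.20 ± 2.22 CPM per kb) stood level with Id1 (5.07 ± 3.50) and Hamp2, and Bmp5 stood above Bmp6 by less than the SD of Bmp6.

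Across the 10 genes the median log2 fold change was 0.18, beside -0.03 over all tested genes. Over 14 alternative settings (13 for Bmp5 and Bmp6), the log2 fold change of Bmp5 ran from 4.56 to 5.24, that of Tfrc from 1.24 to 1.98 and that of Hamp from -2.17 to -1.17. Bmp6 (0.76 to 1.81) and Slc40a1 (0.20 to 0.78) also stayed above 0. Bmp2, Hamp2, Id1, Smad7 and Tfr2 took both signs.

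**Figure D3:**
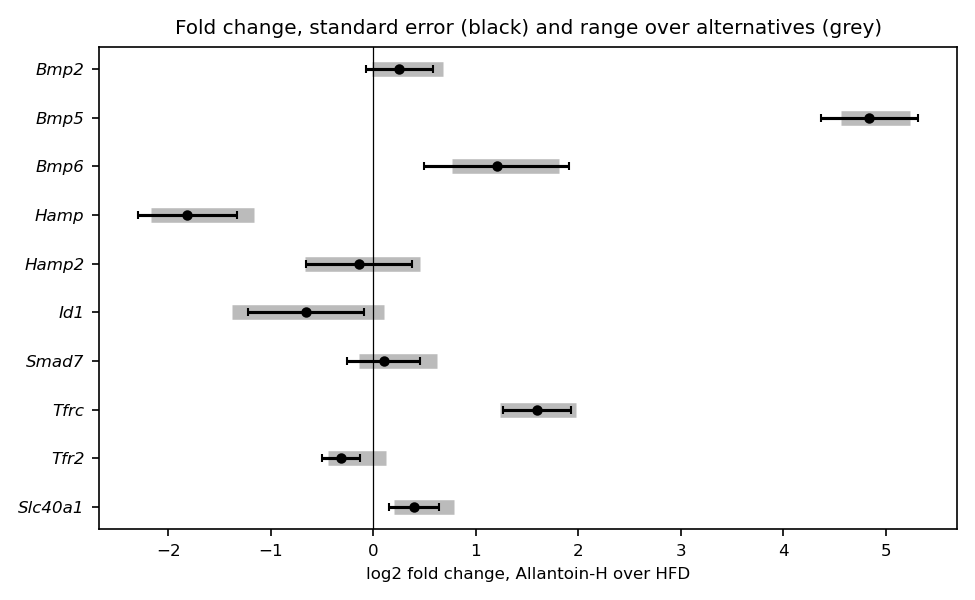
The log2 fold change, Allantoin-H over HFD, of the 10 genes (points), with its standard error (black bars) and the range over alternative settings (grey bands). Bmp5, Tfrc, Bmp6 and Slc40a1 stay above 0 and Hamp stays below 0 over the grey bands, while the bands of Bmp2, Hamp2, Id1, Smad7 and Tfr2 cross 0.

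To place the 10 genes in their pathway, 122 further genes in 6 lists were taken from the same fit. Of these 111 were tested, and 19 were called higher and 6 lower in Allantoin-H (edgeR, adjusted p under 0.05), which is 22.5% beside 24.3% of all genes. Their median log2 fold change was 0.22 beside -0.03 over all genes, and 49 of the 111 did not overlap, 34 higher and 15 lower, beside 44.3% of all tested genes, 2867 higher and 2797 lower. Without Allantoin-H replicate 5 the calls over all genes went from 1446 higher and 1666 lower to 460 and 564. Those of the pathway lists also depended on single libraries. Without Allantoin-H replicate 5 they were 3 higher and 2 lower, without replicate 4 they were 9 and 2, without replicate 6 they were 12 and 9, and without HFD replicate 3 they were 27 and 13. With library size as the only scaling, which moved the median of all genes to 0.38, they were 43 and 3.

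Among BMP family ligands and antagonists 2 of 15 tested genes were called higher and 2 lower (26.7%), and the list's median was -0.32 on the log2 scale. The ligands that bind the endothelial receptor ALK1 rose. Gdf2, which encodes BMP9 (chr14:33941039-33947198), went from 9.50, 8.10 and 4.26 CPM in HFD to 18.6, 22.5 and 16.1 CPM in Allantoin-H, a log2 fold change of 1.40 (SE 0.30, adjusted p = 0.0116). Bmp10 (chr6:87428994-87437677) went from 1.09, 0.296 and 0.0836 CPM to 3.74, 5.09 and 3.51 CPM (3.12, SE 0.66, adjusted p = 0.0116). Every Allantoin-H library was above every HFD library for both, and both calls were lost without Allantoin-H replicate 5 (adjusted p = 0.0595 and 0.0602). The size of the Bmp10 difference depended on single HFD libraries, at 4.42 on the log2 scale without replicate 1 and 2.58 without replicate 3. Chrd, whose product chordin binds BMPs outside the cell, fell from 25.9, 9.18 and 8.53 CPM to 2.42, 2.54 and 3.38 CPM (log2 fold change -2.38, SE 0.45, adjusted p = 0.00819), or by 1.67 on the log2 scale without HFD replicate 1. Inhba, the activin A subunit, fell from 10.9, 5.23 and 12.4 CPM to 2.71, 3.31 and 3.17 CPM (-1.63, SE 0.35, adjusted p = 0.0122). Inhba did not pass without Allantoin-H replicate 5 (adjusted p = 0.0532) or replicate 4 (adjusted p = 0.0566). The levels of Erfe, the erythroid hormone that captures BMPs, were too low to be tested.

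Of the receptors, co-receptors and regulators at the hepatocyte surface, 2 of 14 tested genes were called higher and none lower (14.3%), and the median was 0.42 (log2). Furin, a protease that matures hepcidin and BMPs and cleaves hemojuvelin, rose from 93.3, 56.3 and 56.8 CPM to 131, 148 and 121 CPM (log2 fold change 0.95, SE 0.23, adjusted p = 0.0174). Bmpr2, the type II BMP receptor, rose from 19.1, 25.0 and 25.8 CPM to 33.3, 41.9 and 37.8 CPM (0.69, SE 0.18, adjusted p = 0.0246). Furin did not pass without Allantoin-H replicate 5 (adjusted p = 0.0782) or 4 (adjusted p = 0.0605), and Bmpr2 did not pass without replicate 5, 4 or 6 (adjusted p from 0.0556 to 0.108). Hemojuvelin (Hfe2 in this annotation, also Hjv), the BMP co-receptor without which hepcidin is nearly absent, was at 160, 108 and 63.5 CPM in HFD and at 67.2, 66.4 and 56.0 CPM in Allantoin-H. It overlapped between groups through HFD replicate 3 and was not called (-0.80, SE 0.30, adjusted p = 0.0771). It was called lower by DESeq2 (adjusted p = 0.0349), with no filter (adjusted p = 0.00458) and without HFD replicate 3 (-1.08, adjusted p = 0.00612), and was -0.44 without HFD replicate 1 (adjusted p = 0.215). The type I receptors Bmpr1a (0.27, adjusted p = 0.293) and Acvr1 (-0.06, adjusted p = 0.872), the hemojuvelin-cleaving protease Tmprss6 (0.30, adjusted p = 0.214) and the hemochromatosis gene Hfe (0.34, adjusted p = 0.212) were not called, and with library size as the only scaling the sign for Acvr1 turned and Tmprss6 and Hfe were called higher (adjusted p = 0.0387 and 0.0386).

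Of the SMADs and other BMP outputs, 3 of 16 tested genes were called higher and none lower (18.8%), and the median was 0.20 (log2). Smad5, a BMP-responsive SMAD, rose from 14.7, 17.4 and 11.7 CPM to 27.9, 27.7 and 26.4 CPM (log2 fold change 0.90, SE 0.19, adjusted p = 0.0105). Its relative Smad1 was at 16.8 to 18.4 CPM in HFD and 10.8 to 13.3 CPM in Allantoin-H, without overlap but not called (-0.52, SE 0.17, adjusted p = 0.0595), except with the length and GC trend removed (adjusted p = 0.0282). Smad6, the inhibitory SMAD for BMP signals, rose from 5.35, 3.56 and 3.34 CPM to 9.46, 10.6 and 8.57 CPM (1.23, SE 0.27, adjusted p = 0.0134). Smad7 per count of Smad6 was accordingly 2.12, 1.44 and 1.35 in HFD and 0.744, 0.772 and 0.827 in Allantoin-H. Smad2, of the activin and TGF-beta branch, was also higher (1.10, SE 0.34, adjusted p = 0.0473), and the common partner Smad4 was not called (0.50, adjusted p = 0.104), except without HFD replicate 3 (adjusted p = 0.0274) or with library size as the only scaling (adjusted p = 0.0255). Without Allantoin-H replicate 5 the adjusted p was 0.0523 for Smad5, 0.0699 for Smad6 and 0.155 for Smad2. Smad6 did not pass without Allantoin-H replicate 4 either (adjusted p = 0.0535), and Smad2 did not without Allantoin-H replicate 4 or 6 or HFD replicate 2, or with the length and GC trend removed (adjusted p from 0.0660 to 0.118).

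Of the other BMP targets on this list, Atoh8, Id2 and Id3 were not called by edgeR. Atoh8, a BMP-induced factor that acts on the hepcidin promoter, was at 41.4, 29.7 and 20.0 CPM in HFD and at 19.4, 17.8 and 9.25 CPM in Allantoin-H, without overlap (log2 fold change -0.97, SE 0.33, adjusted p = 0.0600). It was called lower by DESeq2 (adjusted p = 0.0252), with no filter (adjusted p = 0.000487) and without HFD replicate 3 (adjusted p = 0.0169). Id3 was at 58.6, 25.2 and 138 CPM in HFD and at 48.5, 36.0 and 39.3 CPM in Allantoin-H (-0.85, SE 0.49, adjusted p = 0.234), and Id2 at 64.8 to 176 and 95.3 to 162 CPM (-0.17, SE 0.36, adjusted p = 0.771). Id3 rested on single libraries, at -0.02 without HFD replicate 3 and at -1.26 with a call without HFD replicate 2 (adjusted p = 0.0325), and was also called with no filter (adjusted p = 0.00203). The ID genes did not share their order of libraries, since HFD replicate 3 had the highest Id3 and the lowest Id1 of its group. HFD replicate 1, in contrast, was the highest library of all 6 for Hamp, Id1, Smad7, Tfr2, Atoh8 and Hfe2 and the lowest for Bmp6. These genes were named after their values were seen. The same library was also highest for Chrd, Inhbc, Inhbe, Gdf15, Slc39a14, Saa1, Saa2 and Lcn2, but not for Id2, Id3 or Smad6. It had the lowest TMM factor (0.756), and the share of all genes highest in it was not computed.

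**Figure D4:**
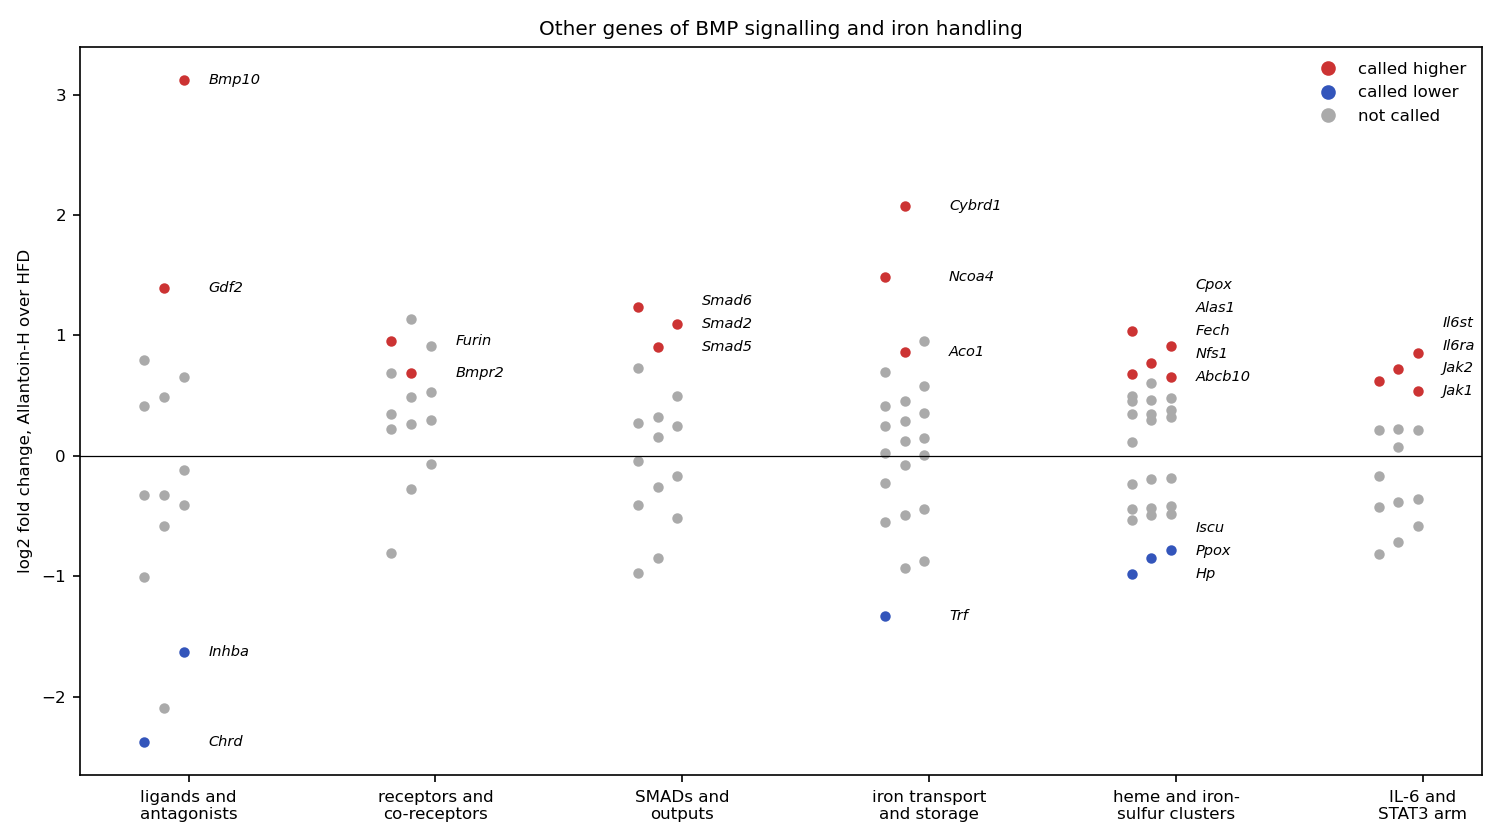
The log2 fold change, Allantoin-H over HFD, of the 111 tested genes of the 6 pathway lists (1 point a gene; red called higher, blue called lower, grey not called, edgeR adjusted p under 0.05). Bmp10 is highest at 3.12 and Chrd lowest at -2.38, and the receptor, SMAD and IL-6 lists hold calls in the higher direction alone.

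Among the other genes of iron transport, storage and sensing 3 of 23 tested were called higher and 1 lower (17.4%), and the median was 0.15 (log2). Trf (transferrin, also Tf), the iron carrier of plasma, fell from 1348, 1417 and 1811 CPM to 577, 517 and 723 CPM (-1.33, SE 0.20, adjusted p = 0.00437). Ncoa4, the receptor that delivers ferritin for degradation, rose from 19.9, 26.5 and 27.3 CPM to 59.7, 69.1 and 77.1 CPM (1.48, SE 0.19, adjusted p = 0.00300). Aco1, which encodes iron regulatory protein 1, rose from 103, 135 and 112 CPM to 204, 225 and 207 CPM (0.86, SE 0.16, adjusted p = 0.00844), and without Allantoin-H replicate 5 its adjusted p was 0.05001. Cybrd1, a ferric reductase, was also higher but under 1 CPM on average (2.08, SE 0.65, adjusted p = 0.0461). Its HFD values were 0.328, 0.198 and 0.0836 CPM, and its call was not followed gene by gene over the alternatives. The ferritin light chain Ftl1 was at 1993 to 2566 CPM in HFD and 1556 to 1653 CPM in Allantoin-H without a call (-0.55, SE 0.18, adjusted p = 0.0542). Ftl1 was called lower by DESeq2 (adjusted p = 0.0205), by limma-voom (adjusted p = 0.0396) and without HFD replicate 2 (adjusted p = 0.0427), and its difference shrank to -0.08 once the length and GC trend was taken out. The heavy chain Fth1 overlapped (0.12, SE 0.19, adjusted p = 0.680). The importer Slc39a14 (-0.49, adjusted p = 0.144) and the ferroxidase Cp (-0.23, adjusted p = 0.421) were not called. Slc39a14 was called lower without HFD replicate 2 (adjusted p = 0.0342), and the sign for Cp turned with library size as the only scaling. Hamp per 100 counts of Trf overlapped between groups, at 73.2, 33.4 and 14.1 in HFD and 30.2, 42.8 and 12.8 in Allantoin-H.

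Of 28 heme and iron-sulfur cluster genes, all tested, 5 were called higher and 3 lower (28.6%), and the median was 0.31 (log2). Within heme synthesis the directions were mixed. Cpox had 88.0 to 109 CPM in HFD and rose to between 197 and 218 CPM in Allantoin-H (1.04, SE 0.16, adjusted p = 0.00431), Fech, which inserts the iron, from between 79.5 and 85.8 to between 134 and 144 CPM (0.77, SE 0.15, adjusted p = 0.00817), and Alas1, the first enzyme, from between 198 and 409 to between 459 and 628 CPM (0.91, SE 0.27, adjusted p = 0.0371). Ppox, which acts between Cpox and Fech, fell from between 13.5 and 20.0 to between 8.44 and 9.70 CPM (-0.85, SE 0.21, adjusted p = 0.0190). In iron-sulfur cluster assembly the cysteine desulfurase Nfs1 rose (0.68, SE 0.15, adjusted p = 0.0130) and the scaffold Iscu fell (-0.78, SE 0.15, adjusted p = 0.00853). The mitochondrial transporter Abcb10 rose (0.66, SE 0.18, adjusted p = 0.0318), haptoglobin (Hp) fell (-0.98, SE 0.29, adjusted p = 0.0362), and Hmox1, which breaks heme down, was not called (0.38, SE 0.28, adjusted p = 0.358). The calls of Ppox and Iscu were lost with library size as the only scaling (adjusted p = 0.142 and 0.192), and those of Nfs1, Iscu, Ppox and Abcb10 without Allantoin-H replicate 5 (adjusted p from 0.0562 to 0.0895). Iscu, Ppox and Abcb10 did not pass without Allantoin-H replicate 4 (0.0533 to 0.133), Ppox and Abcb10 without Allantoin-H replicate 6 (0.0774 and 0.0694), and Abcb10 without HFD replicate 1 (0.0598). The calls of Alas1 and Hp were not followed gene by gene over the alternatives. Without Allantoin-H replicate 5 the pathway lists together held only 3 higher and 2 lower calls.

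Inflammation raises hepcidin through IL-6 and STAT3. Of that list 4 of 15 tested genes were called higher and none lower (26.7%), and the median was 0.07 (log2). All 4 act at the receptor: Il6st (gp130) rose from between 52.3 and 63.1 to between 86.8 and 123 CPM (0.85, SE 0.18, adjusted p = 0.0118), Il6ra from between 23.6 and 30.8 to between 32.7 and 50.5 CPM (0.72, SE 0.21, adjusted p = 0.0347), Jak1 by 0.54 on the log2 scale (SE 0.15, adjusted p = 0.0303) and Jak2 by 0.62 (SE 0.18, adjusted p = 0.0350). Without Allantoin-H replicate 5 none of the 4 passed (adjusted p from 0.0633 to 0.135), and Il6ra, Jak1 and Jak2 did not pass with the length and GC trend removed (0.0802 to 0.132). The same 3 genes missed the threshold without Allantoin-H replicate 4 or HFD replicate 2 (0.0503 to 0.120), Jak1 and Jak2 without Allantoin-H replicate 6 (0.0939 and 0.122), Il6ra without HFD replicate 1 (0.0812) and Jak2 without HFD replicate 3 (0.0524). Stat3 itself overlapped at 82.3 to 85.0 CPM in HFD and 63.0 to 82.3 CPM in Allantoin-H (-0.16, SE 0.16, adjusted p = 0.486), as did Creb3l3, another activator of hepcidin (0.22, SE 0.21, adjusted p = 0.482). With library size as the only scaling the sign for Stat3 turned and Creb3l3 was called higher (adjusted p = 0.0473). None of the 7 acute-phase genes of the list was called by edgeR. Named after their values were seen, they were Fgb, lower without overlap (-0.59, adjusted p = 0.0557), Orm1 (-0.81, adjusted p = 0.0696), Lbp (-0.38, adjusted p = 0.193), Fgg (-0.36, adjusted p = 0.260), Saa2 (-0.72, adjusted p = 0.333), Saa1 (-0.42, adjusted p = 0.567) and Fga (0.22, adjusted p = 0.524). Il6 was too low to be tested.

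Summed markers of some cell types also differed between groups. In whole liver a change in the number of cells of a type and a change in RNA per cell cannot be told apart. The label of liver was checked on 11 hepatocyte markers, which summed to 95590 to 99158 CPM in HFD and 84420 to 113994 CPM in Allantoin-H, with 2 called higher and 4 lower. Stellate cell markers, the cells in which Gdf2 and Bmp10 are mainly made, summed to 209 to 347 CPM over 12 genes in HFD and to 469 to 545 CPM in Allantoin-H, and 7 of 11 tested were called higher, while Des (-0.02) and Ecm1 (-0.0050) had log2 fold changes near 0. Kupffer cell and macrophage markers, cells that export iron through ferroportin, summed to 190 to 436 CPM over 12 genes in HFD and to 465 to 502 CPM in Allantoin-H, with 3 called higher, while Cd68 (-0.01), C1qa (-0.06) and Timd4 (-0.10) were near 0. The closest of these sums, in HFD replicate 2 and Allantoin-H replicate 4, differed by less than their Cd5l values alone (63.7 and 99.0 CPM). Sinusoidal endothelial markers, the source of Bmp2 and Bmp6, overlapped at 163 to 294 and 255 to 391 CPM over 15 genes, with 2 called higher and 2 lower. HFD replicate 3 was lowest among the 6 libraries for both the endothelial sum and Bmp2. The part of these cells in the values of the BMP ligands and of Slc40a1 was not tested.

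Tfrc is abundant on red cell precursors. Erythroid markers overlapped at 334 to 1341 CPM in HFD and 884 to 1057 CPM in Allantoin-H over 8 genes, none of which was called, and their part in the Tfrc values was not tested. Lymphocyte markers summed to 19.4 to 26.6 and 18.2 to 19 CPM, cholangiocyte markers to 34.5 to 159 and 21.9 to 76.8 CPM, and adipocyte markers to 114 to 631 and 63.8 to 148 CPM, the 631 being HFD replicate 2. That library held Adipoq (51.4 CPM), Plin1 (49.2 CPM) and Lep (11.4 CPM), which were at 0 in the other HFD libraries and at most 0.0733 CPM in Allantoin-H. It was also the highest HFD library for Bmp2 and Bmp6, whose log2 fold changes were 0.58 and 1.81 without it. The part of adipose tissue in its values was not tested. No marker was at 0 in all libraries.

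**Figure D5:**
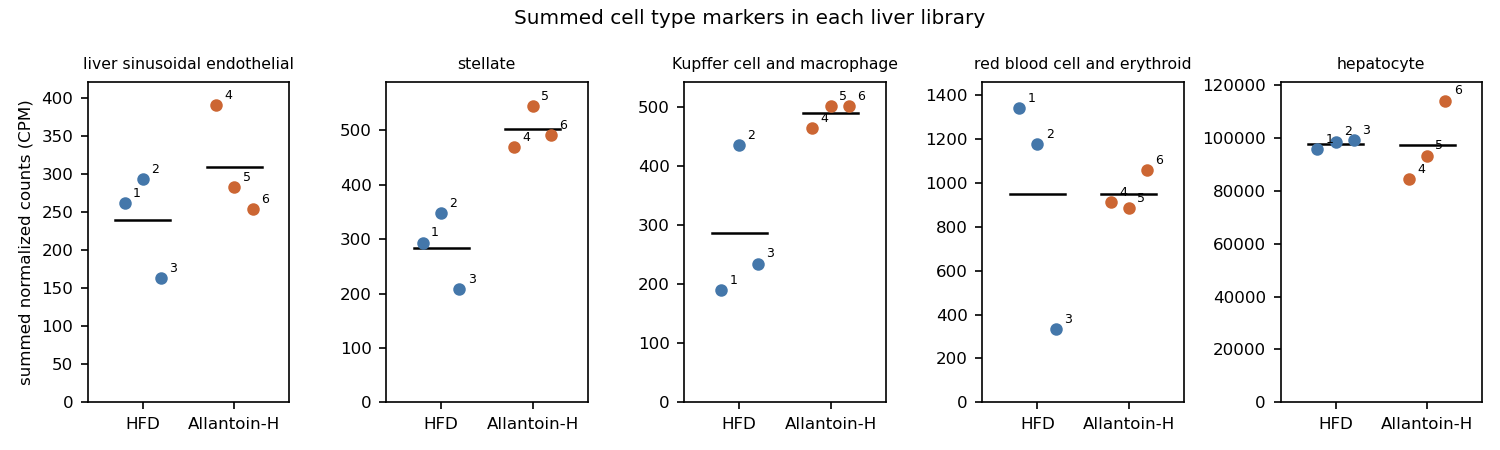
Summed normalized counts (CPM, linear axes from 0) of 5 cell type marker lists in each library, points numbered by replicate, bars at group means. Stellate and Kupffer cell sums of the Allantoin-H libraries all lie above those of HFD, while endothelial, erythroid and hepatocyte sums overlap.

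The genes whose pattern over the 6 libraries was most like that of Hamp, Bmp5 and Id1 were sought among 8682 genes averaging 5 CPM or more, by the root mean square difference of centred log2 values. Ankrd10 (0.233), Ctcflos (0.265) and Pabpn1 (0.304) were nearest to Hamp. All 3 shared its order within HFD, with replicate 1 highest, as for Ankrd10 at 25.1, 15.7 and 7.52 CPM in HFD and 5.28, 5.44 and 3.10 CPM in Allantoin-H. Pik3ap1 (0.121), Isoc1 (0.189) and Pdxk (0.197) were nearest to Bmp5, and Pik3ap1 went from 7.31, 8.59 and 6.86 CPM to 42.2, 41.3 and 38.3 CPM. For Id1 the nearest were Trib3 (0.301), Gtf2ird2 (0.323) and Zfp335 (0.355). Trib3 repeated the high values of replicates 1 and 4, at 14.8, 5.83 and 4.68 CPM in HFD and 13.4, 6.45 and 4.79 CPM in Allantoin-H.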

How the data were processed

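Liver RNA was extracted from 3 HFD and 3 HFD + Allantoin-H samples, made into SMARTER libraries and sequenced on an Illumina HiSeq. The authors filtered the reads and deposited raw read counts per gene. The build GRCm38/mm10 is in the submitters' processing notes, and the aligner and counter are not given in the sources used here. Of 54961 features, 429 without an Ensembl identifier (0.197% to 0.306% of counts) were left out. Symbols and positions came from GENCODE M21 (GRCm38), which held 54495 of the 54532 identifiers. Hjv is listed there as Hfe2 and Tf as Trf.

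The contrast was fitted in edgeR 4.0.16 (R 4.3.3) with TMM, filterByExpr, the quasi-likelihood test, group as the only term and Benjamini-Hochberg adjustment over 12795 genes. CPM values carry no prior count. For the pattern search 1 CPM was added before taking log2. The 10 genes and all lists were chosen with earlier results of these data known, and no list is independent support. Named genes were the 10 genes, up to 6 called genes per list with a mean of at least 1 CPM by smallest p, preset regulators, and 3 genes of most similar pattern for Hamp, Bmp5 and Id1. Genes called beyond these limits, and those said to be, were named after their values were seen. Start regions came from RefSeq and were aligned with Biopython 1.88. The alternatives were other scalings, DESeq2 1.42.0, limma-voom 3.58.1, other filters, a length and GC trend removed, and each library left out. Counting intervals cover counting error only. No 2 libraries were duplicates (chi-square per degree of freedom of at least 16.9 between replicates).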

Additional observations from a re-analysis of the deposited data

How the results depend on the processing

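Scaling by library size only moved the median log2 fold change of all genes from -0.03 to 0.38. It gave 3162 genes higher and 674 lower over all genes, and 43 and 3 in the pathway lists, and turned the sign of Acvr1 (0.35), Cp (0.18), Id2 (0.25) and Stat3 (0.25), none of which was called. Pathway genes called lower numbered 12 with DESeq2 and 15 with no filter, both of which tested more genes. Leaving out 1 library at a time gave 460 to 1773 genes higher and 564 to 2008 lower over all genes, and 3 to 27 higher and 2 to 13 lower in the pathway lists, with the lowest counts without Allantoin-H replicate 5 (pathway genes lower also without replicate 4) and the highest without HFD replicate 3. In these fits Acvr1 ran from -0.21 to 0.11 and Id2 from -0.50 to 0.06. Among the named genes 17 calls were lost without Allantoin-H replicate 5, 11 without replicate 4 and 6 without replicate 6. The cause was not tested. No paired analysis was possible because the groups share no replicate numbers. At this depth a gene with at most 3 counts in every library of a group, such as Bmp5 in HFD, has a fold known only within its counting interval.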
